A study of Homo sapiens with 11 samples.

Results

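The subject here is the CTCF sites next to the centromeres of chromosomes 1 to 22 in HCT116 p53-/- cells, which derive from a human colorectal carcinoma and lack p53. Binding was mapped by CUT&RUN: an antibody brings a nuclease to its target on chromatin, and the fragments freed by cleavage are sequenced. All cells carried the p53 deletion. WT cells had no further change, ORC2 deletion cells were a single CRISPR/Cas9 clone of them, and rescue cells were clonally selected after ORC2 was put back on a plasmid. For each genotype the authors deposited 1 list of CTCF summits (the base of highest signal in each peak), which names no replicate although 2 CTCF libraries per genotype are labelled. IgG, an antibody without a chromatin target, was profiled too, with 2 libraries for WT, 2 for ORC2 deletion and 1 for rescue. A summit was counted as pericentromeric if it lay within 3 Mb outside either edge of the centromere bands of the hg38 chromosome map. The rule took 522 of 18625 autosomal summits in WT, 851 of 30502 in ORC2 deletion and 582 of 20363 in rescue, 1955 of the 70966 summits of all chromosomes and lists. With 1 list per genotype there is no spread between samples and no test between genotypes. Intervals of shares below are 95% Wilson intervals, and all intervals cover counting error only.

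Pericentromeric DNA flanks the satellite arrays on which kinetochores assemble. It holds much heterochromatin, many recently duplicated segments and clusters of zinc finger and olfactory receptor genes, next to ordinary single-copy genes. CTCF, a zinc finger protein, recognises a long motif and halts cohesin there, which sets the ends of chromatin loops. ORC2 is a subunit of the origin recognition complex, which licenses DNA replication and has also been found at heterochromatin and centromeres in human cells.

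To show what such a site looks like, promoters were searched for the core of the CTCF motif, taken as CC, any 3 bases, AG, any 2 bases and GGC, on either strand. A promoter is here the 300 bases from 250 before to 50 after a gene start in RefSeq (GRCh38.p14), and 62 promoters of 58 genes held a pericentromeric summit. The core was found in 15 of the 62, or 24.2% (15.2 to 36.2). It was found in 25.3% of the 2176 autosomal promoters with a CTCF summit and in 10.6% of all 33725 autosomal promoters. In the windows, promoters without a summit had it in 9.63% (8.10 to 11.4) of 1225. Some promoters overlap and count the same core, as those of ZNF25 and ZNF25-DT do. These intervals therefore do not rest on independent promoters. The following runs of 30 bases are read 5′ to 3′ on the strand that spells the core, which is in capitals. They were chosen after their values were seen, to show 1 promoter each for 3 combinations of lists with a summit, counted with summits joined within 500 bp.
LYRM9: cgcgcgcggCCGGCAGAGGGCgctgggctc
ERAL1: taatggctgCCCCCAGCTGGCgcggggcta
PDRG1: ctctctgagCCTGCAGAGGGCgctccagcc

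The LYRM9 run lies at chr17:27893413-27893442 on the minus strand, in the promoter of a gene for a small mitochondrial protein family member. Its promoter had a summit in every list, with −log10 q values of 13.1 in WT, 25.5 in deletion and 11.1 in the rescue list. ERAL1, an RNA chaperone of the mitochondrial ribosome, has its run at chr17:28855033-28855062 on the plus strand. In its promoter the deletion list had a summit at 12.9 and the rescue list at 3.92, and WT had none. The PDRG1 run is at chr20:31952147-31952176, minus strand, with WT at 7.85, deletion at 8.02 and no rescue summit. From the middle of the run the nearest summit was 97 bp away at LYRM9, 125 bp at ERAL1 and 19 bp at PDRG1. A match of letters describes the sequence and does not show that CTCF bound it. Of the 7 promoters that held a summit of all 3 lists, only that of LYRM9 had the core in these 300 bases. Those without it included TTC5 (12.6 in WT, 12.1 in deletion and 13.8 in the rescue list) and MYO18A, an unconventional myosin (10.3, 28.97 and 11.96).

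The pericentromeric windows had more CTCF summits in ORC2 deletion than in WT cells, and the rescue list lay close to WT. There were 522 summits in WT, 851 in deletion and 582 in the rescue list, so that deletion over WT was 1.63 and rescue over WT was 1.11. All other autosomal summits numbered 18103, 29651 and 19781, with ratios of 1.64 and 1.09. The windows therefore held nearly the same share of each list: 2.80% (2.58 to 3.05) of WT, 2.79% (2.61 to 2.98) of deletion and 2.86% (2.64 to 3.10) of rescue summits. With the 18625 highest-valued autosomal summits of each list, which makes the lists equally long, the windows held 522, 508 and 529. Deletion over WT was then 0.973, and 1.00 over all other autosomal summits. Equal length fixes the ratio over all autosomal summits in advance, so this setting cannot show whether deletion cells had more summits. With a −log10 q of at least 10 they held 104, 319 and 147. Deletion over WT was then 3.07, and 2.74 over all other autosomal summits.

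CTCF summits were sparser beside centromeres than elsewhere. The windows span 132 Mb of map and held 3.95 WT, 6.45 deletion and 4.41 rescue summits per Mb, against 6.79, 11.1 and 7.42 per Mb elsewhere outside the centromere bands. Protein-coding genes were sparser too, with 5.36 per Mb in the windows and 6.91 elsewhere. Per gene, WT summits numbered 0.737 in the windows and 0.982 elsewhere. Stretches of the windows without assembled or mappable sequence were not subtracted, and their part in the lower density was not tested.

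The summits were spread unevenly over the 44 windows. The arms 9q, 13p, 14p, 15p and 16q had none in any list, and 17q had the most, with 49 in WT, 86 in deletion and 60 in the rescue list. Among the 23 arms with at least 10 WT summits, deletion exceeded WT on 22. Its median ratio was 1.60, and the ratio over all other autosomal summits 1.64. Rescue was below deletion on 23 of these arms, and against WT it was higher on 17, equal on 2 and lower on 4. Deletion over WT was also compared on the 18 chromosomes with at least 10 WT summits in the windows. It was higher in the windows than on the rest of the chromosome on 7 and lower on 11. Counts on single arms are small, and neighbouring summits are not independent.

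**Figure D1:**
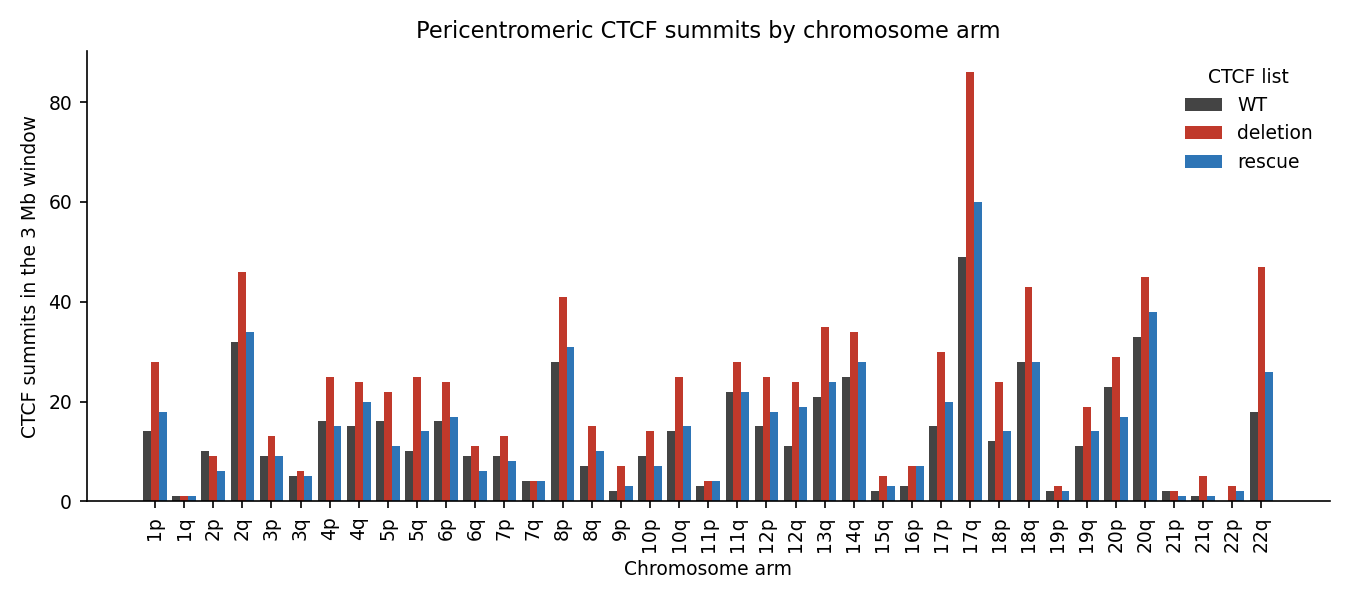
CTCF summits within 3 Mb of the centromere (y axis, count) by chromosome arm (x axis), with 1 bar for each list (WT, ORC2 deletion, rescue). The 17q window is the fullest with 86 deletion summits, and 2p is the arm with at least 10 WT summits where deletion (9) does not exceed WT (10).

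The 22q window had the highest ratio among those arms, 2.61, with 18 summits in WT, 47 in deletion and 26 in the rescue list. It was singled out after its values were seen. Joining summits of the 3 lists within 500 bp gave 50 sites there, of which 12 were in all 3 lists, 18 in deletion alone and 11 in deletion and rescue. Over all autosomal sites these classes hold 40.9%, 27.4% and 13.0%. The stretch holds genes of the 22q11 deletion syndrome. At TBX1, a T-box factor of heart and pharyngeal development, the strongest site had values of 4.85 in WT, 18.0 in deletion and 2.42 in the rescue list. DGCR8, the RNA-binding partner of Drosha, held a site in all lists (3.63, 8.35 and 7.33) and a site in deletion alone (6.53). CDC45, a subunit of the replicative helicase, had a site in deletion alone at 3.02. The strongest site of 22q in deletion alone was inside DGCR6L at 20.5.

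The 2p window, in contrast, had the lowest ratio among the arms with at least 10 WT summits, 0.9. There were 10 summits in WT, 9 in deletion and 6 in the rescue list. This window too was singled out after its values were seen. Its summits lay mostly in the immunoglobulin kappa locus, where light chain segments are joined in B cells. The strongest site there, 11448 bp from IGKV4-1, had 23.4 in WT, 28.6 in deletion and 17.4 in the rescue list. Further sites in all lists were near IGKV5-2 (5.60, 14.4 and 12.3) and IGKV7-3 (8.18, 11.5 and 7.22). Of 14 sites in 2p, 5 were in all 3 lists, 3 in deletion alone and 4 in WT alone. One of the WT sites, inside the pseudogene IGSF3P2 (6.81), lay 40429 bp from the centromere edge.

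The 5q window, also singled out after its values were seen, had 10 summits in WT, 25 in deletion and 14 in the rescue list. Deletion over WT was 2.5. Both 2p and 5q sat at the minimum of 10 WT summits. The 5q window holds ITGA1, the alpha-1 chain of a collagen-binding integrin, with a site of 56.0 in WT, 86.1 in deletion and 74.5 in the rescue list. ARL15, a small GTPase gene, held 7 sites, 4 in all lists and 3 in deletion alone. Near FST, the activin inhibitor follistatin, 3 of 4 sites were in deletion alone, at 2.65, 3.98 and 3.02. These values are low, below the lower quartile of 4.66 of deletion summits in the windows.

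By distance from the centromere, each list had more summits at the far end of the windows than next to the bands, without a steady rise between. Within the first 0.5 Mb there were 70 in WT, 105 in deletion and 67 in the rescue list, and in the last 0.5 Mb 116, 188 and 123. Protein-coding genes numbered 93 in the first and 131 in the last step, with a peak of 161 from 1.5 to 2 Mb. Deletion over WT ranged from 1.5 to 1.73 over the 6 steps and did not move steadily with distance. Rescue over WT was lowest next to the centromere (0.957) and highest from 2 to 2.5 Mb (1.22).

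**Figure D2:**
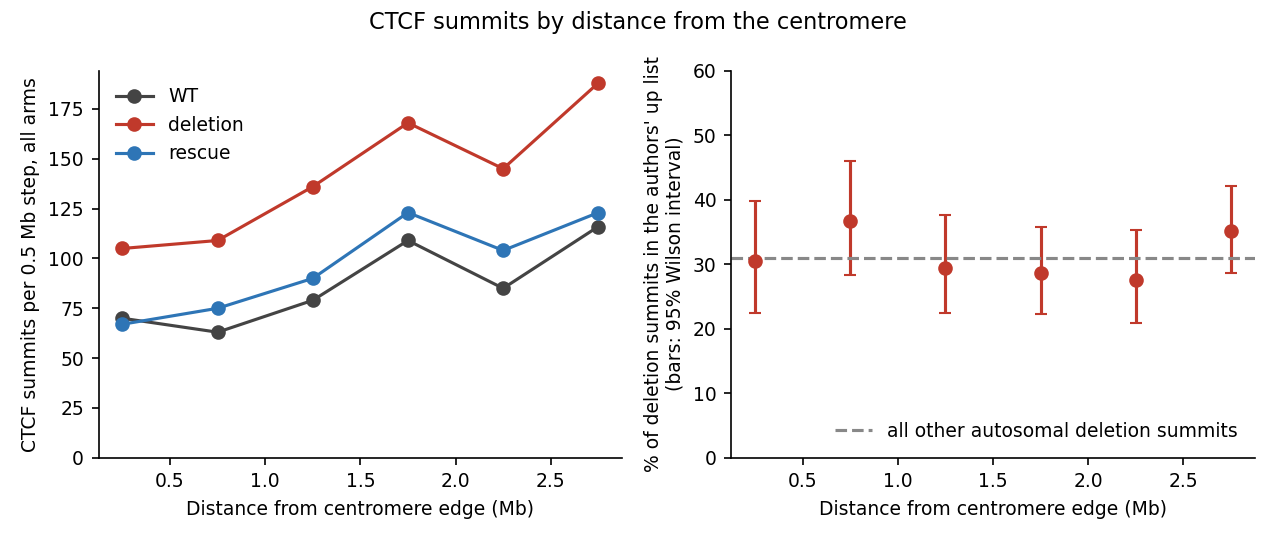
Left, CTCF summits of each list in steps of 0.5 Mb from the centromere edge, summed over arms. Right, the share of deletion summits in the authors' up list at the same steps with 95% Wilson intervals, all of which include the 30.9% of other autosomal deletion summits (dashed).

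On 39 arms the site nearest the centromere lay 3395 to 2691988 bp from its edge, with a median of 258068 bp, and on 10 arms within 50 kb. Of these 39 sites 13 were in all 3 lists, 10 in deletion alone and 5 in WT alone, where the shares over all autosomal sites are 40.9%, 27.4% and 4.42%. HTR1F, a serotonin receptor gene, was 21068 bp from such a site, at 28363 bp from the edge of 3p (4.28 in WT, 17.6 in deletion and 5.05 in the rescue list). ESCO1, an acetyltransferase of cohesin, was 257 bp from the first site of 18q (3.799, 4.96 and 5.93). Among the first sites in all 3 lists, those of 1q, 20q and 21p had a CTCF summit within 2 bp of an IgG summit. That of 16p lay 1960 bp from one. Other first sites lay in ZNF25 (10p, WT and deletion), TEC (4p, deletion), GPAT2 (2q, deletion and rescue), CECR2 (22q, deletion and rescue) and CNTNAP3B (9p, deletion), or near ISL1 (5q, WT), KSR1 (17q, all lists), NINL (20p, deletion), DCUN1D4 (4q, rescue) and PKP2 (12p, WT and rescue).

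Most WT summits beside centromeres were still called without ORC2. A deletion summit lay within 500 bp of 456 of 522 WT summits, 87.4% (84.2 to 89.9), and of 89.8% (89.4 to 90.3) of other WT summits. Without a deletion summit were 66, or 12.6% as against 10.2% of all autosomal WT summits. In rescue, 74.3% (70.4 to 77.9) of the 522 were found, and 76.7% (76.0 to 77.3) of other WT summits. For 134 of the 522 there was no rescue summit, where the background over all autosomal WT summits is 23.4%. Of the 66 without a deletion summit, 12 had a rescue summit, 18.2% (10.7 to 29.1), and 21.2% (19.4 to 23.2) of 1841 elsewhere did.

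Among the 851 deletion summits, 394 had no WT summit within 500 bp, or 46.3%, as against 45.2% of all autosomal deletion summits. A WT summit was near 53.7% (50.3 to 57.0) of them, and near 54.9% (54.3 to 55.4) of other deletion summits. A rescue summit was present at 136 of the 394, 34.5% (29.99 to 39.3), and at 32.1% (31.4 to 32.9) of 13383 such summits elsewhere. Deletion and rescue were set against the same WT list here. Of the 582 rescue summits, 192 had no WT summit, 33.0% as against 29.9% of all autosomal rescue summits. A deletion summit was near 133 of the 192, 69.3% (62.4 to 75.4), and near 72.9% (71.8 to 74.1) of 5900 such summits elsewhere.

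Joined within 500 bp, the summits formed 970 pericentromeric sites among 33990 autosomal ones. In all 3 lists were 379, or 39.1% (36.1 to 42.2), with a background of 40.9%. The deletion list alone held 258, 26.6% (23.9 to 29.5), with a background of 27.4%. Deletion and rescue without WT held 132, 13.6%, against 13.0% over all autosomal sites, and WT and deletion without rescue 79, 8.14%, against 8.32%. In WT alone were 53, 5.46% (4.20 to 7.08) as against 4.42%, in rescue alone 59, 6.08% (4.74 to 7.77) as against 4.87%, and in WT and rescue 10, 1.03% as against 1.13%. The shares of the pericentromeric sites thus lay near the background in each class.

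**Figure D3:**
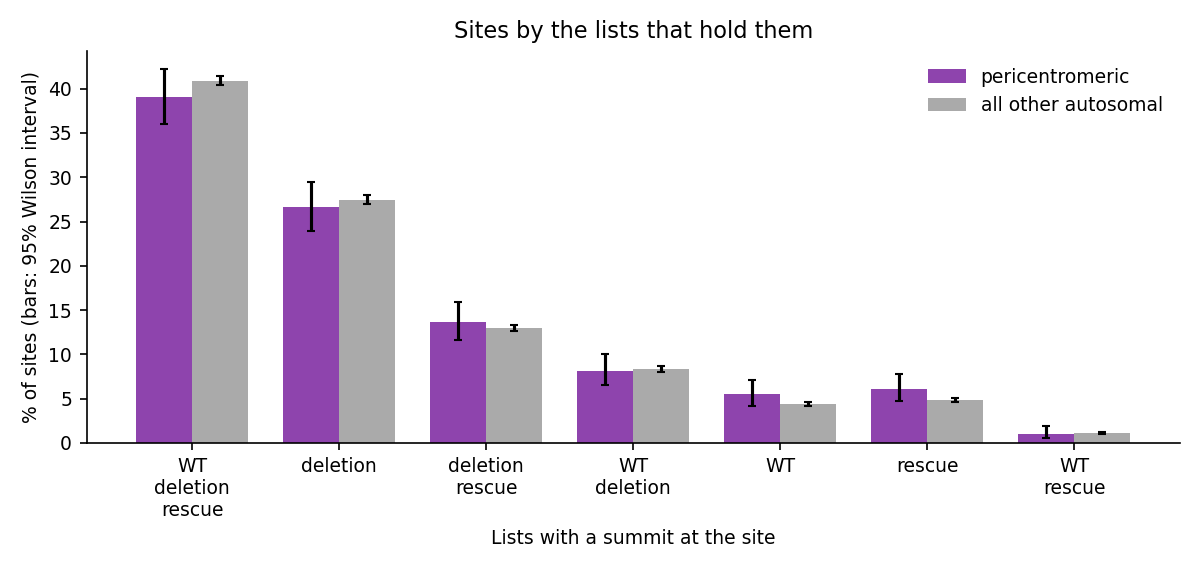
Share of sites (y axis, percent, with 95% Wilson intervals) by the lists that hold a summit at the site (x axis), for 970 pericentromeric and 33020 other autosomal sites. The paired bars lie close together, from 39.1% against 40.9% for sites in all 3 lists to 1.03% against 1.14% for sites in WT and rescue.

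Summits common to the lists sat at slightly different bases. Over the 379 sites in all 3 lists the strongest deletion and WT summits were a median of 69 bp apart (quartiles 30.5 to 131.5), and 59 bp at other such sites. Shares are therefore lower at a shorter matching distance. Within 100 bp a deletion summit lay near 57.3% of the WT summits in the windows and 61.0% of the others.

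The median value of pericentromeric summits was a little lower than elsewhere in each list. In the deletion list its interval (7.54 to 8.52) includes the value elsewhere. No interval was computed for the WT and rescue medians. Values are −log10 q from the peak caller and were not put on a common scale across lists. The median in the windows was 5.71 in WT (6.22 elsewhere), 8.02 in deletion (8.11) and 6.22 in rescue (6.64). Values of at least 10 were found in 19.9% (16.7 to 23.6) of WT, 37.5% (34.3 to 40.8) of deletion and 25.3% (21.9 to 28.9) of rescue summits in the windows, and in 23.7% (23.1 to 24.4), 39.7% (39.1 to 40.2) and 27.02% (26.4 to 27.6) elsewhere. The intervals of deletion and rescue include the shares elsewhere, and that of WT lies just below. When each list was divided by value into 5 equal parts, the pericentromeric share of the top part was 2.44% (WT), 2.48% (deletion) and 2.78% (rescue). That of the bottom part was 2.95%, 2.97% and 2.995%. Sites in the deletion list alone were weaker than those in all 3 lists, with medians of 4.19 and 12.5 in the deletion list.

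**Figure D4:**
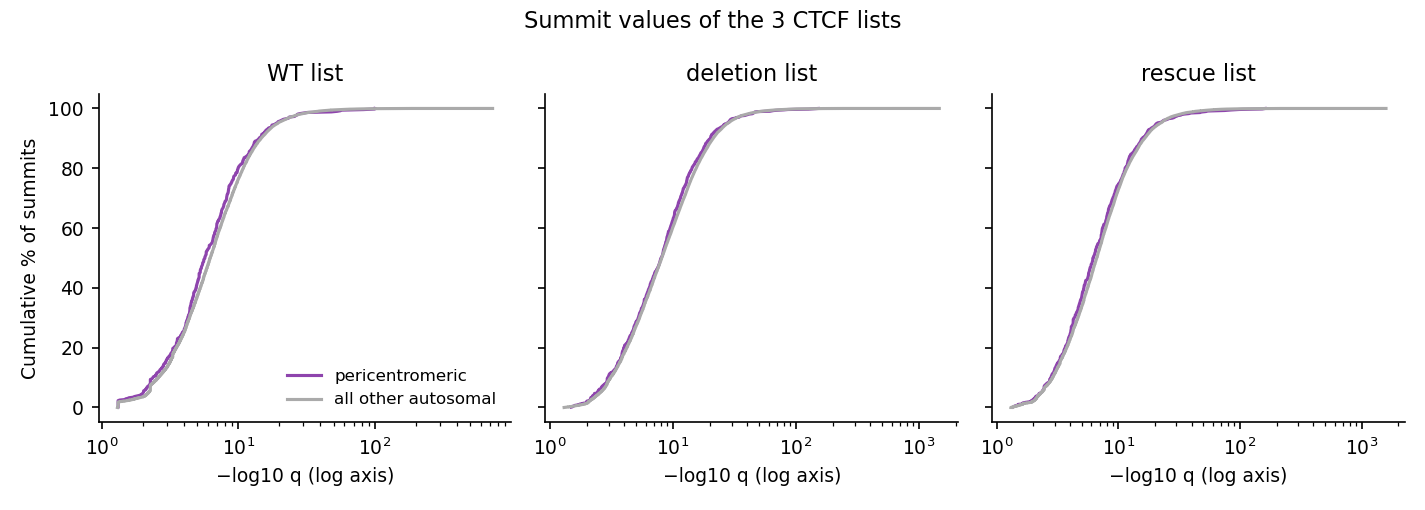
Cumulative share of summits (y axis, percent) by −log10 q (x axis, log scale) in the WT, deletion and rescue lists, for pericentromeric and all other autosomal summits. The pericentromeric curves run just to the left of the others, with medians of 5.71, 8.02 and 6.22.

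The very highest values beside centromeres stood where IgG had summits too. In every CTCF list the leading pair lay at 125180187 (WT position) on 1q and 34588209 on 16p, at ranks 15 and 13 of the WT list, 15 and 12 of the deletion list and 5 and 6 of the rescue list. On 1q the CTCF values were 99.98 in WT, 138.9 in deletion and 161.2 in the rescue list, and the IgG values 121.4, 308.0 and 91.2. On 16p the CTCF values were 100.3, 152.1 and 152.2, and those of IgG 88.5, 276.6 and 91.8. A further such site, at 8234496 on 21p, near the pseudogene CDC27P9, had CTCF values of 53.04, 61.3 and 98.4 and IgG values of 56.1, 150.1 and 60.2. IgG had a summit at each of these 3 places in all 3 genotypes. Another IgG summit, in the deletion list on 21p, lay 680 bp from the ribosomal RNA gene RNA45SN2.

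IgG summits were few, and many lay near centromeres. The windows held 4 of 17 autosomal IgG summits in WT, 11 of 34 in deletion and 6 of 19 in rescue, and another 6, 10 and 5 lay inside the centromere bands. They fell on 1q, 10q, 16p, 20q and 21p. Of the CTCF summits in the windows, 6 in WT lay within 1 kb of an IgG summit, 1.15% (0.528 to 2.48) as against 0.129% of all autosomal WT summits. In deletion there were 11, 1.29% (0.723 to 2.30) as against 0.0951%, and in rescue 10, 1.72% (0.936 to 3.13) as against 0.157%. On 16p, 7 of 8 sites lay within 1 kb of an IgG summit, and the eighth 1960 bp away. Without summits near IgG the windows held 516 WT, 840 deletion and 572 rescue summits, a deletion over WT ratio of 1.63.

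**Figure D5:**
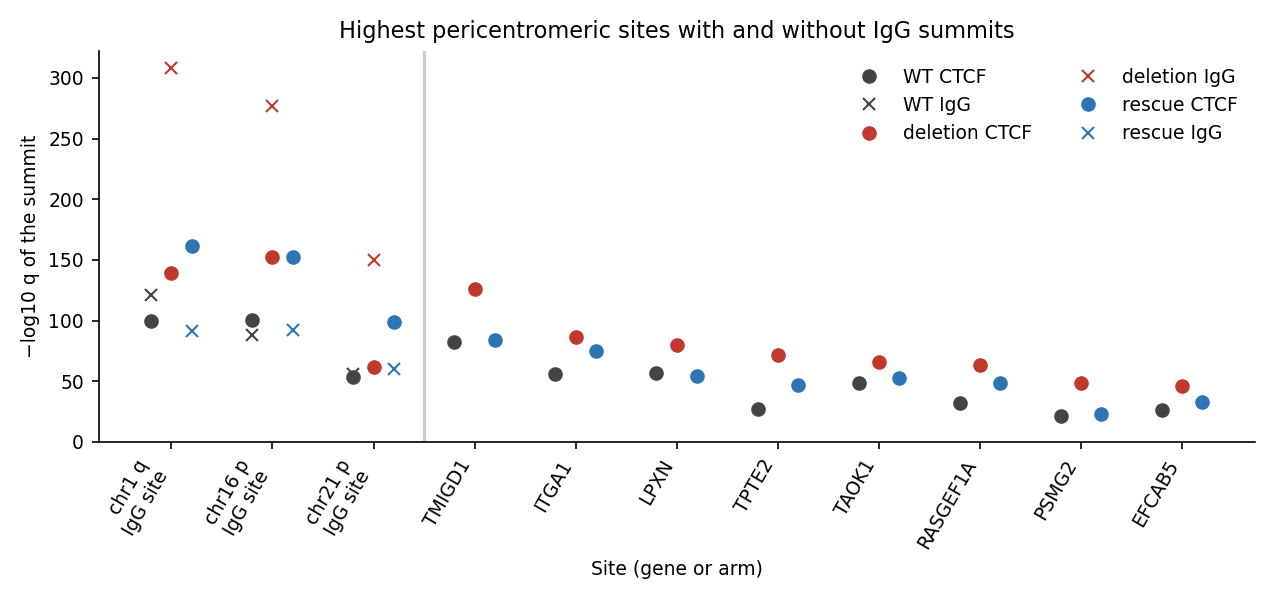
Value of the summit (y axis, −log10 q) in each list at the 3 highest sites shared with IgG (left, crosses for IgG) and at the 8 leading sites of the named-gene rule in all 3 lists (right). IgG reaches 308.0 in deletion on 1q, and no IgG summit lies at the sites on the right.

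Among sites in all 3 lists, the leading one with a gene was 2683 bp from TMIGD1, an adhesion protein of epithelia on 17q, with 82.6 in WT, 126.0 in deletion and 83.9 in the rescue list. ITGA1, described above, came next. LPXN, the focal adhesion protein leupaxin on 11q, was 2392 bp from a site with 57.1, 79.9 and 54.2. TPTE2, a lipid phosphatase gene, was 26182 bp from a site with 27.1, 71.5 and 46.9. The deletion value is the highest of the 3 at each of these sites, as it is at the other 4 of this group. The group was itself ranked by the deletion value, and the lists share no scale. Over all 379 sites in all 3 lists the medians were 6.95 in WT, 12.5 in deletion and 8.01 in the rescue list. At such sites elsewhere they were 7.37, 13.4 and 8.19. TAOK1, a kinase upstream of MAP kinases, had a site 20211 bp away with 48.1, 65.7 and 52.4. RASGEF1A, an exchange factor for Ras, held one with 32.1, 63.5 and 48.1. PSMG2, a chaperone of proteasome assembly, and EFCAB5, an EF-hand protein, completed the group with deletion values of 48.5 and 46.4. By rank within its own list, the PSMG2 site stood at 733 in WT, 348 in deletion and 908 in the rescue list, and the TMIGD1 site at 29, 26 and 39.

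Sites in the deletion list alone were led by DGCR6L (20.5). A site 7211 bp from DHRS7B, a short-chain dehydrogenase, had 15.2, and one 22270 bp from RNASE12 had 14.1. HSD3B1, an enzyme of steroid hormone synthesis, was 1804 bp from a site at 12.8, and CUL2, the cullin of the VHL ubiquitin ligase, held one at 11.01. RASGEF1A (12.9), EFCAB5 (11.7) and ARL15 (11.2) had such sites besides their shared ones. These 8 stood between places 3314 and 10681 of the deletion list.

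Where deletion and rescue had a summit and WT had none, the leading genes were SEH1L, a nucleoporin, with 22.3 in deletion and 14.0 in rescue, SLC35D4 (18.5 and 8.01), CCNY, a membrane-bound cyclin (18.0 and 3.86), and GJB2, the gap junction protein connexin 26 (17.3 and 18.7). At GJB2 the site ranked 4874 in deletion and 1458 in rescue. Sites in WT and deletion without rescue were led by EYS, a photoreceptor protein (6.41 in WT and 19.4 in deletion), NOS2, the inducible nitric oxide synthase (9.21 and 15.2), CNNM4, a magnesium transporter (7.95 and 14.4), and ADAM30 (2.88 and 13.7). In WT alone stood sites near ID1, an inhibitor of helix-loop-helix factors (9.02), BICD1, a dynein adaptor (8.14), CXCL12, the chemokine ligand of CXCR4 (6.72), and TMEM11 (6.66). Sites near ZNF697 (8.91), and inside USP18, which removes ISG15 (8.80), KIT, a receptor tyrosine kinase (7.30), and MICU2, a regulator of mitochondrial calcium uptake (6.75), were in rescue alone. These 8 values, of sites in WT alone or rescue alone, were all below 10. A rescue site on 10q without a protein-coding gene within 50 kb reached 11.4.

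All 258 sites in deletion alone were in the authors' deposited up list, with 8 sites that also had a WT or rescue summit within the joined 500 bp. In the windows the up list thus nearly repeats the class of sites in deletion alone and is not separate support for it. Elsewhere the up list took 9164 deletion summits, and 9072 sites were in deletion alone. The list took 266 of the 851 deletion summits, 31.3% (28.2 to 34.5). The background over all autosomal deletion summits was 30.9%. The 266 were weak, with a median of 4.25 against 10.2 for the other deletion summits in the windows, and the same held elsewhere (4.36 and 10.9). Their regions had a median width of 296 bp, and 300 bp elsewhere. The first 5 genes of this list were DGCR6L, DHRS7B, RNASE12, RASGEF1A and HSD3B1, with the values given above. Among the 18 chromosomes with at least 10 WT summits in the windows, the up share was higher in the windows than on the rest of the chromosome on 10 and lower on 8.

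The authors' deposited down list held 10 of the 522 WT summits, 1.92% (1.04 to 3.49), with a background of 1.83%. Of the 10, 7 lay within 1 Mb of the centromere, which is 5.26% (2.57 to 10.5) of the 133 WT summits there, against 1.81% of all other autosomal WT summits. The site near CST1, a cystatin, had 7.43 in WT and 3.93 in rescue, and that near CST5, another cystatin of the 20p cluster, 5.18 and 6.15. LGSN, a lens protein, was 3179 bp from a site with 6.49 and 7.21. PSPH, the last enzyme of serine synthesis, held one with 4.15 and 2.95, and TEC, a tyrosine kinase, one with 4.15 and 6.89. PKP2, a desmosomal protein, was 23855 bp from a site with 2.52 and 3.81. Near PEX26, a peroxisomal protein, the WT summit had 4.10 and the rescue summit 11.1, but a deletion summit of 4.33 in an up region lay close enough to be joined with them within 500 bp. BICD1 held another (2.12 and 5.37), and a site on 4q had no protein-coding gene within 50 kb (9.24 and 4.52). None of the 10 reached 10 in WT.

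Of the 970 sites, 454 lay inside a protein-coding gene, 46.8% (43.7 to 50.0), and 49.3% (48.7 to 49.8) of other sites did. In lncRNA genes lay 10.2% (11.02% elsewhere), in pseudogenes 1.44% (1.06%) and between genes 40.4% (38.4%). Genes of other types held 11 sites, 1.13% (0.634 to 2.02), all in the immunoglobulin kappa locus, and 0.212% (0.168 to 0.268) elsewhere. Within 50 kb the sites had 378 protein-coding genes, 173 of them with 1 site. DST, the giant cytolinker dystonin, held 12 sites, 6 in all lists and 3 in deletion alone. MYO18A had 9, 4 in all lists and 4 in deletion and rescue, and KSR1, a scaffold of the RAF and MEK kinases, had 9, 4 in all lists and 4 in deletion alone. BICD1 had 8 and none in all lists, while the 5 sites of ZNF219 were all in the 3 lists.

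Gene families of the pericentromere were followed through sites within 50 kb of a member. Zinc finger genes had 48 sites in the windows, 21 in all 3 lists and 11 in deletion alone, that is 43.8% and 22.9%, and their 752 sites elsewhere had 38.7% and 29.8%. Leading sites were near ZNF131 (30.3 in WT, 45.1 in deletion and 38.03 in the rescue list), ZNF697 (26.6, 39.2 and 32.6), ZNF219 (9.99, 29.9 and 20.4) and ZFP91 (13.8, 25.5 and 17.8). Olfactory receptors, of which 191 genes and pseudogenes lay in the windows, had 14 sites, 10 in all lists (71.4%) and 2 in deletion alone (14.3%), against 45.2% and 27.7% of their 321 sites elsewhere. Their leading sites were near OR5B21 (the LPXN site), OR5AU1 (the ZNF219 site) and OR6S1 (14.1, in deletion alone), and inside OR4K2 (2.62, 13.5 and 12.5).

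Families of recent pericentromeric duplication, such as ANKRD36, TPTE and FRG1 copies, had 30 sites in the windows, 8 in all lists, 10 in deletion alone and 7 in deletion and rescue. Elsewhere 36.1% of their 166 sites were in all lists and 30.7% in deletion alone, against 26.7% and 33.3% here. Leading ones were inside TPTE2-AS1 (the TPTE2 site), near ANKRD36 (23.5, 41.3 and 29.3), near ANKRD36B (16.7, 25.9 and 16.8) and near FRG1HP (12.9, 23.9 and 20.7). Copies are nearly identical, so reads may have been placed at the wrong one, which was not tested. Immunoglobulin segments had 16 sites in the windows, 6 in all lists (37.5%) and 3 in deletion alone (18.8%), against 44.6% and 17.9% of their 56 sites elsewhere. Besides the kappa locus, IGKV2OR2-2 on 2q was 44557 bp from a site with 8.03 in WT, 10.1 in deletion and 10.0 in the rescue list. The counts of these lists are small, and none was tested.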

How the data were processed

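Per the submitters' processing notes, FastQC 0.11.5, Bowtie2 2.2.9, SAMtools 1.12 and MACS2 without a version were used with hg38. How peaks were called, how duplicates and replicates were handled and whether IgG was a control is not given in the sources used here. Summit lists are the authors' deposited files: they hold 1 base per peak and its −log10 q. Each CTCF list names no replicate and was taken as the pool of its group, and library depth is unknown. The deposited up and down lists give region starts and ends without a value.

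Summits were put on 1-based coordinates. Centromere edges were entered by hand from knowledge of the UCSC cytobands, not compared with the table itself, and checked against RefSeq, where the widest stretch without a protein-coding gene overlaps the bands on 19 of 22 chromosomes. As drawn, the bands also cover 71 protein-coding genes, so the edges are approximate. Summits matched within 500 bp. Sites were named by the protein-coding gene holding them (the shortest, if several) or the nearest within 50 kb, ranked by the deletion value, else WT, else rescue. The rule named the first 8 genes of sites in all lists and in deletion alone, 4 of each other class, 5 up, up to 8 down, the first site of each arm and 4 per gene list. Not every first site of an arm is printed. Some genes that the rule named, and some sequences, are not reported here. Members and lists were chosen with earlier results of these data known. Shares have 95% Wilson intervals, and no test was run. Alternatives were other matching distances, windows, −log10 q minimums, equal list lengths and lists without summits near IgG or without chromosome 17. The matching was tested on simulated data. Gene positions and promoters came from RefSeq GRCh38.p14 (56752 autosomal genes; 33725 promoters of full length). Scripts ran under Python 3.11.15 with pandas 2.3.3, SciPy 1.17.1, NumPy 2.4.6 and, for plots, matplotlib 3.10.9.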

Additional observations from a re-analysis of the deposited data

Results flagged for a closer look

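Summits of the IgG libraries, which lie outside the CTCF measurement, were found in the pericentromeric windows: 4 in WT, 11 in deletion and 6 in the rescue list. The rescue IgG list is of 1 library, so the counts are not a comparison of genotypes.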

How the results depend on the processing

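No paired analysis was possible because the lists, 1 for each genotype, carry no replicate numbers, and no replicate could be left out. Of 72 values (8 results under 9 alternatives) 51 stayed within the interval, or within 1.5 times for the ratios, and 21 moved. Among the 51 are values that a setting cannot touch, for example summit counts under another matching distance. The lists without summits near IgG, without chromosome 17, with a 5 Mb window and with matching within 1000 bp moved none of the 8.

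Matching within 100 bp gave 57.3% of WT summits with a deletion summit (61.0% elsewhere) and 35.3% of deletion summits with a WT summit (37.2% elsewhere). Of deletion summits without a WT summit, 27.9% then had a rescue summit (26.4% elsewhere). With a 1 Mb window the down share of WT summits was 5.26% (1.81% elsewhere) and the deletion median 6.81 (8.12 elsewhere). At a −log10 q of at least 5, a WT summit lay near 45.6% of deletion summits (49.3% elsewhere). At this minimum 16.3% of deletion summits were in the up list (16.6% elsewhere) and their median was 10.3 (10.7 elsewhere). At 10 or more, deletion over WT was 3.07 (2.74 elsewhere). Then 94.2% of WT summits had a deletion summit (91.6% elsewhere) and 31.0% of deletion summits had a WT summit (33.5% elsewhere). At that minimum 5.96% of deletion summits were in the up list (4.32% elsewhere), and their median was 15.0 (15.5 elsewhere). Of those without a WT summit, 23.6% had a rescue summit (25.6% elsewhere). In the down list were 0 of 104 WT summits (0%, upper limit of the interval 3.56%), and 0.279% elsewhere. At equal list lengths deletion over WT was 0.973. Then 71.6% of WT summits had a deletion summit (75.1% elsewhere) and 73.6% of deletion summits had a WT summit (74.97% elsewhere). There 9.84% of deletion summits were in the up list (11.3% elsewhere), and their median was 11.6 (12.1 elsewhere). Of those without a WT summit, 54.5% had a rescue summit (50.2% elsewhere). Unknown depth limits each count, since deeper libraries give longer lists.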
